A study of Homo sapiens with 6 samples.

Results

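The RNA levels of the NDUF genes, most of which encode subunits and assembly factors of mitochondrial complex I, were examined after knockdown of PRMT1 in MM.1S cells. Members were the protein-coding genes of the deposited expression table whose symbol begins with NDUF, and 48 of the 58735 genes in the table met this rule. By symbol, 40 of these were grouped as subunits (14 NDUFA, 1 NDUFAB1, 11 NDUFB, 3 NDUFC, 8 NDUFS and 3 NDUFV genes). The other 8 are NDUFAF genes, which encode assembly factors. The subunit counts thus include NDUFA4, now counted among the subunits of complex IV, and its relative NDUFA4L2. MM.1S is a human cell line derived from multiple myeloma, a cancer of plasma cells, and PRMT1 is the enzyme that makes most of the asymmetric dimethylarginine in human cells. RNA sequencing (RNA-seq) covered 3 control libraries, from cells transfected with a negative control siRNA (si-NC), and 3 PRMT1 KD libraries, from cells transfected with siRNA against PRMT1 (si-PRMT1), both at 100 nM and with cells taken 72 h after transfection. The knockdown was transient and in 1 cell line, the siRNA used for sequencing is not named in the sources used here, and the study's methods call its biological replicates dependent without saying whether the libraries of a group came from separate cultures, so p-values measure the spread between these libraries, which may be technical. In bulk RNA of this kind, fewer cells that express a gene and less RNA per cell cannot be told apart.

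Complex I takes electrons from NADH, passes them through a flavin and a chain of iron-sulfur clusters to ubiquinone, and pumps protons across the inner mitochondrial membrane. Its core subunits, shared with bacteria, carry out catalysis and proton pumping and are encoded partly in the nucleus and partly in mitochondrial DNA, whereas the accessory subunits, all nuclear, surround the core and are needed for its assembly and stability. Assembly factors bind intermediates and leave before the enzyme is complete, and several of them modify a subunit: NDUFAF7 methylates an arginine of a core subunit and NDUFAF5 hydroxylates an arginine of NDUFS7. Myeloma cells secrete or synthesise large amounts of immunoglobulin and depend on oxidative phosphorylation (OXPHOS) for part of their ATP.

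Primer pairs for qRT-PCR of 4 of these genes come from the study's methods and are shown because they mark which part of each transcript that assay read. All positions are on GRCh38 with the exons of GENCODE release 29. The NDUFS6 product of 131 bases joined exons 3 and 4 (chr5:1814391-1815910, plus strand) and was found whole in 1 of 2 coding transcripts.
NDUFS6 forward: tggagactcgggtgatagcgtg
NDUFS6 reverse: gtggtgctgtctgaactggagc
The NDUFB2 product of 158 bases joined exons 2 and 3 (chr7:140702951-140704957, plus strand) and was found in 10 of 11 coding transcripts.
NDUFB2 forward: agcggactcatgtggttctgga
NDUFB2 reverse: agagtgaggctgagtctacacc
The NDUFA4L2 product of 127 bases joined exons 4 and 5 (chr12:57235554-57235809, minus strand) and was found in all 3 coding transcripts.
NDUFA4L2 forward: ctgggacagaaagaacaacccg
NDUFA4L2 reverse: cagcctggcttagaagtctggc
The NDUFA11 product of 108 bases joined exons 2 and 3 (chr19:5896537-5896973, minus strand) and was also found in all 3 coding transcripts.
NDUFA11 forward: tcacactcaatcctccgggcacctt
NDUFA11 reverse: tgatgcaggtggtgaggccaaaca
All of the NDUFA11 product lay within exons of other genes, both strands counted, whereas none of the other products was shared with another gene. The genes whose exons overlap those of NDUFA11 are AC024592.3 on the same strand and AC024592.1 on the opposite strand. The RNA-seq level of NDUFA11 is given further on, and the part of this overlap in it was not tested.

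PRMT1 itself stood at 61.73, 62.76 and 58.95 FPKM (fragments mapped to a gene, scaled for exon length and library size, the deposited unit) in the control libraries and at 13.27, 14.02 and 12.47 FPKM in the PRMT1 KD libraries. Its log2 fold change was -2.13 (SE 0.0552, limma adjusted p = 2.77e-05, n = 3 and 3). Each library held between 14439217 and 16465026 reads assigned to genes, as recovered from its FPKM values. The 9 plasma cell markers looked at were all detected, with means of 2.18 to 519.6 FPKM, and 1 of them was called, SLAMF7, which fell (log2 fold change -0.65, limma adjusted p = 0.00515). Groups did not overlap in 5 of the 9, with SLAMF7, PRDM1 and XBP1 lower and CD38 and MZB1 higher in PRMT1 KD libraries. Over all genes tested, groups did not overlap in 12.3% downwards and in 13.6% upwards. Of 10 markers of other cells, MS4A1 and HBB were at 0 in all libraries and the others had means under 1 FPKM except CD3E, which stood at 32.15 to 35.61 FPKM in control and 36.52 to 39.03 FPKM in PRMT1 KD libraries. The part of these markers in the NDUF values was not tested. In all, 13585 genes had a mean of at least 1 FPKM and were tested, and at an adjusted p under 0.05 limma called 0.986% of them lower and 1.07% higher in PRMT1 KD libraries.

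Of the 48 NDUF genes, 45 were tested, and NDUFA7, NDUFV2 and NDUFC2-KCTD14 had means under 1 FPKM. Two-sided limma called 2 of the 45 lower, NDUFAF8 and NDUFB2, and 0 higher. Voom on the reads called 3 lower and 0 higher, while over all genes tested it called 2.95% lower and 3.87% higher. At an unadjusted limma p under 0.05, 15 were lower, against 9.47% of all genes tested, and 1 was higher (NDUFAF7). The log2 fold change lay below 0 for 35 of the 45 (77.8%), against 47.4% of all genes tested. The median over the 45 was -0.09, beside 0.01 over all genes tested. In 16 of the 45 every PRMT1 KD library lay below every control library, as in 12.3% of all genes tested, and in 1 (NDUFAF7) every PRMT1 KD library lay above, as in 13.6% of all genes tested. On the log2(FPKM + 1) scale, which understates changes of low genes, the spread ran from -0.38 for NDUFAF8 to 0.15 for NDUFB6. The plot of fold changes by class shows 44 of the genes with their intervals.

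**Figure D1:**
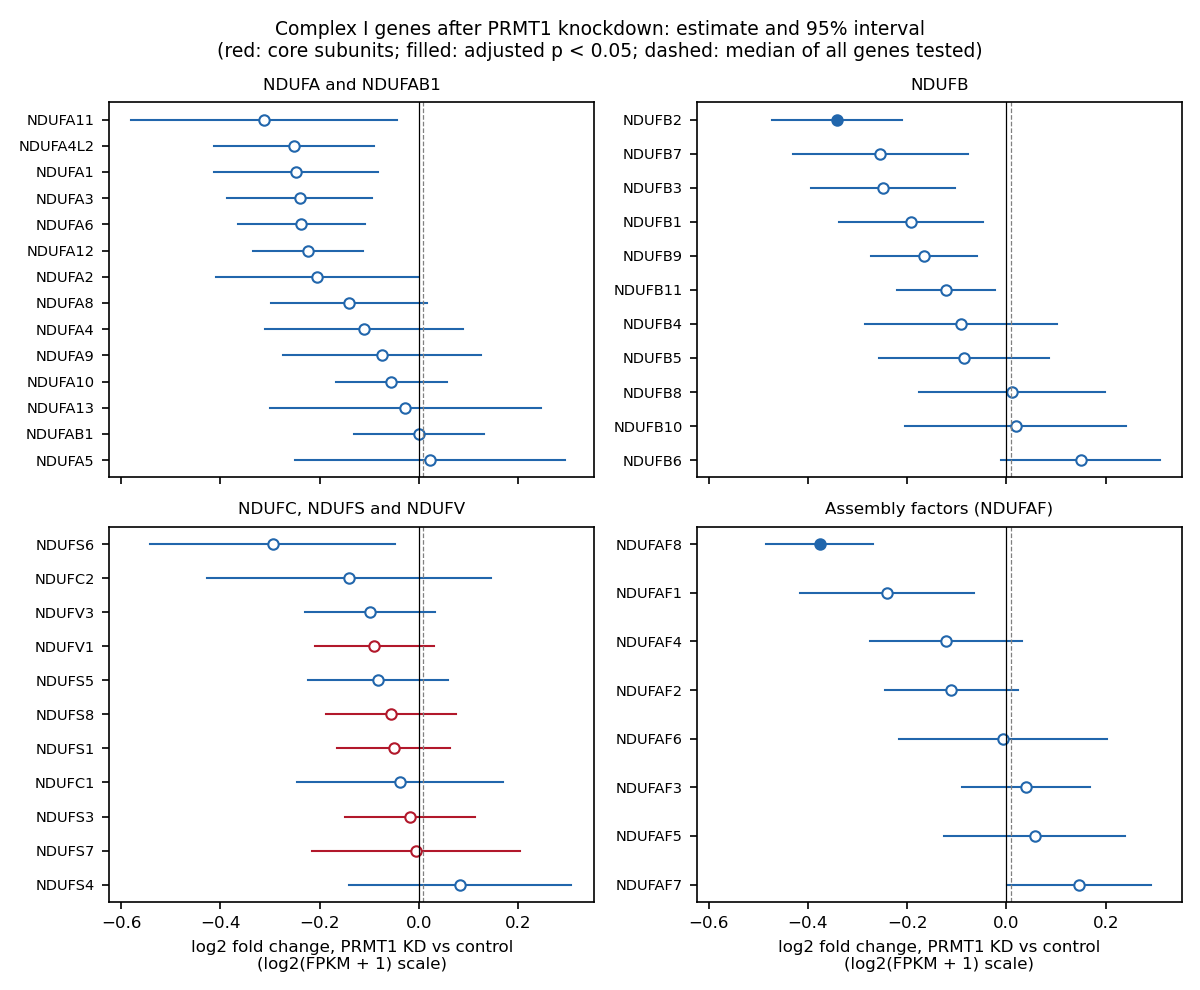
Log2 fold change (PRMT1 KD over control, on the log2(FPKM + 1) scale) of 44 of the 45 NDUF genes tested, in 4 panels by class, with 95% limma intervals over 3 and 3 libraries. Core subunits are red, filled circles have an adjusted p under 0.05, and the dashed line is the median of all genes tested (0.01); the filled circles are NDUFB2 at -0.34 and NDUFAF8 at -0.38, and the core subunits drawn sit between -0.09 and -0.01.

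NDUFAF8 encodes a small assembly factor that holds NDUFAF5 in a stable state, and it was the NDUF gene with the lowest p. It was measured at 37.39, 36.32 and 36.50 FPKM in control and 28.17, 26.96 and 29.10 FPKM in PRMT1 KD libraries. The groups were far apart: the highest PRMT1 KD value lay well under the lowest control value, and the mean was 76.4% of that in control. The log2 fold change was -0.38 (SE 0.0454, 95% interval -0.48 to -0.27, limma adjusted p = 0.0234). The gene (chr17:81239239-81241281, plus strand, 1376 bases of exon) shared no exon with another gene. The call held in 8 of 15 alternative analyses and was lost, for example, with no filter on low values (limma adjusted p = 0.0536) and when any library other than control replicate 3 was left out, while the log2 fold change stayed between -0.40 and -0.35.

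NDUFB2, an accessory subunit of the distal membrane arm, was the other gene called. It stood at 18.33, 17.71 and 17.73 FPKM in control and at 14.01, 14.74 and 13.09 FPKM in PRMT1 KD libraries. Again no value of one group reached the other, and the mean fell to 77.8% of control. The log2 fold change was -0.34 (SE 0.0555, 95% interval -0.47 to -0.21, limma adjusted p = 0.0399). Its call held in 6 of 15 alternatives and was lost on leaving out any 1 library (limma adjusted p 0.0775 to 0.173) and with the replicate number as a block (0.0539), with log2 fold changes of -0.38 to -0.30 throughout. Of the exon bases of NDUFB2 (chr7:140690777-140722790, plus strand), 35.1% lay opposite exons of BRAF or NDUFB2-AS1, which had means of 3.01 and 0.498 FPKM, and the strand setting of the counting is not given in the sources used here.

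The other genes that the study read by qRT-PCR were NDUFS6, NDUFA11 and NDUFA4L2. In the RNA-seq, none of them was called without a replicate block. By qRT-PCR, the study reports most of the OXPHOS genes it read as significantly lower after knockdown. It also reports lower NDUFS6 RNA and protein in MM.1S and NCI-H929 cells. NDUFS6, a zinc-binding accessory subunit at the foot of the NADH-oxidising module, was measured at 89.68, 85.99 and 70.81 FPKM in control and 72.66, 67.31 and 60.04 FPKM in PRMT1 KD libraries. Its groups overlapped, since control replicate 3 lay under PRMT1 KD replicate 1. The log2 fold change was -0.29 with a wide 95% interval of -0.54 to -0.05 (SE 0.105, limma adjusted p = 0.186), and it ranged from -0.40 to -0.22 over the alternatives, with an adjusted p of 0.0495 to 0.442. The lowest of these came from the replicate block, in which NDUFS6 was called, and each of its PRMT1 KD libraries lay below the control library of the same number. The mean in PRMT1 KD libraries was 81.1% of that in control.

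NDUFA11, an accessory subunit of the membrane arm, stood much lower, at 4.46, 4.25 and 3.25 FPKM in control and 3.23, 3.07 and 2.70 FPKM in PRMT1 KD libraries. The groups did not overlap, but control replicate 3 lay only just above PRMT1 KD replicate 1. The log2 fold change was -0.31 (SE 0.113, limma adjusted p = 0.194). The mean of NDUFA11 was 75.25% of control, the lowest share among the members tested (76.42% for NDUFAF8). Its log2 fold change was -0.390 with a pseudocount of 0.1 and -0.397 by voom, against -0.387 and -0.388 for NDUFAF8. NDUFA11 was not called in either. NDUFA4L2, the hypoxia-inducible relative of NDUFA4, was at 4.69, 4.88 and 4.77 FPKM in control and 3.78, 4.18 and 3.63 FPKM in PRMT1 KD libraries. Here the control libraries lay close together and all above the PRMT1 KD libraries, with a log2 fold change of -0.25 (SE 0.0680, limma adjusted p = 0.113). Its relative NDUFA4, now counted among the subunits of complex IV, was at 54.83 FPKM in the middle control library and overlapped between groups (log2 fold change -0.11, limma adjusted p = 0.516).

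**Figure D2:**
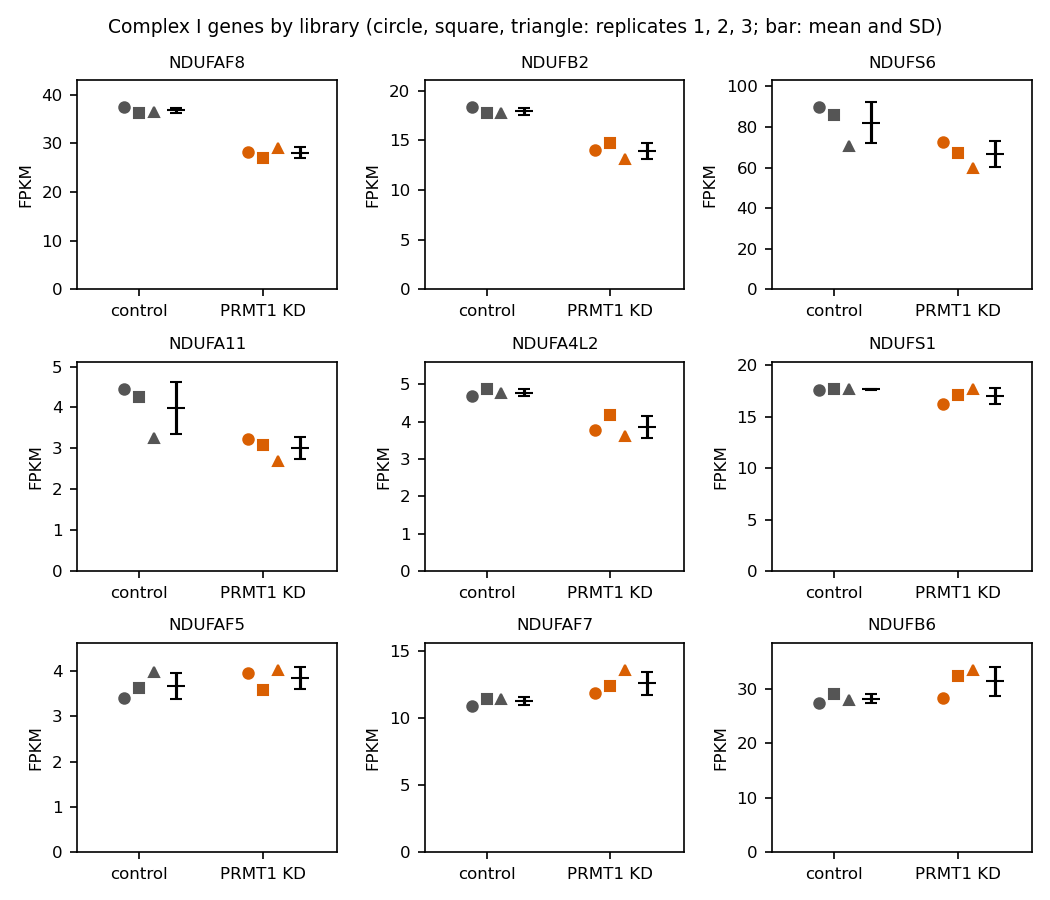
FPKM (linear axis from 0) of 9 NDUF genes in each control (grey) and PRMT1 KD (orange) library, with the mean and SD of each group (n = 3) as a bar; circle, square and triangle are replicates 1, 2 and 3. NDUFAF8 and NDUFB2 are separated with little scatter, NDUFS6 overlaps between groups because control replicate 3 is at 70.81 FPKM, and NDUFS1 lies at 16.25 to 17.72 FPKM over both groups.

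The nuclear core subunits carry the flavin, the iron-sulfur clusters and the ubiquinone site. NDUFV1, which binds the flavin and oxidises NADH, was at 63.61, 64.60 and 59.91 FPKM in control and 60.26, 60.31 and 56.07 FPKM in PRMT1 KD libraries. The groups overlapped, and at -0.09 (95% interval -0.21 to 0.03) it was the lowest of the core log2 fold changes. NDUFS1, the large iron-sulfur subunit, gave 17.62, 17.66 and 17.71 FPKM in control and 16.25, 17.12 and 17.72 FPKM in PRMT1 KD libraries. Its groups overlapped as well, with a log2 fold change of -0.05 (95% interval -0.17 to 0.06).

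NDUFS3, NDUFS7 and NDUFS8 belong to the module that hands electrons to ubiquinone. NDUFS3 was at 22, 22.71 and 20.49 FPKM in control and 20.78, 21.27 and 22.29 FPKM in PRMT1 KD libraries. NDUFS7 was at 8.91, 8.96 and 7.94 FPKM in control and 9.67, 8.41 and 7.69 FPKM in PRMT1 KD libraries. NDUFS8 was at 20.08, 20.47 and 18.97 FPKM in control and 18.83, 20.12 and 18.22 FPKM in PRMT1 KD libraries. All 3 overlapped between groups, and their log2 fold changes were -0.02, -0.01 and -0.06 with 95% intervals of -0.15 to 0.11, -0.22 to 0.20 and -0.19 to 0.08. NDUFV2, which carries a further iron-sulfur cluster, was listed at 0.668, 0.503 and 1.14 FPKM in control and 0.961, 1.56 and 0.896 FPKM in PRMT1 KD libraries and was not tested. None of the 6 core genes tested was called by limma or voom or separated between groups. Over all genes tested, 12.3% were separated downwards and 13.6% upwards. Limma called 0.986% lower and 1.07% higher, and voom 2.95% and 3.87%. At 6 genes, a count of 0 lies near these shares. The median of the 6 was -0.03, with interval limits down to -0.22 for NDUFS7. The accessory subunits as grouped here, with NDUFA4 and NDUFA4L2 among them, had 13 of 31 separated downwards and a median of -0.12. Median exonic length was 4523 bases over the 7 core genes and 1889 bases over the 33 accessory genes. Fold change moved with length over protein-coding genes, as given further on. The difference between core and accessory genes, and the part of length in it, were not tested.

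Among the accessory subunits, those with the next lowest p were NDUFA12, NDUFA6 and NDUFB3. NDUFA12, which takes the place of the assembly factor NDUFAF2 late in assembly, was at 21.39, 21.29 and 20.90 FPKM in control and 18.79, 17.80 and 17.47 FPKM in PRMT1 KD libraries. NDUFA6, which anchors an acyl carrier protein to the matrix arm, was at 66.82, 61.05 and 60.64 FPKM in control and 50.98, 54.79 and 53.69 FPKM in PRMT1 KD libraries. NDUFB3, a small subunit of the membrane arm, was at 35.97, 41.27 and 37.58 FPKM in control and 30.75, 32.12 and 33.15 FPKM in PRMT1 KD libraries. In all 3 genes the groups were apart, with log2 fold changes of -0.22, -0.24 and -0.25 and limma adjusted p of 0.0651, 0.0818 and 0.0947, so none passed the test. With only genes of at least 5 FPKM in the fit, NDUFA12 and NDUFA6 passed it (limma adjusted p = 0.0433 and 0.0468).

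By class, the NDUFA genes had a median log2 fold change of -0.20, with 12 of 13 below 0 and 6 separated downwards. The NDUFB genes had a median of -0.12, with 8 of 11 below 0 and 6 separated downwards. In the NDUFS class the median was -0.03 and 0 of 8 were separated, and the 2 NDUFC and 2 NDUFV genes tested had medians of -0.09 and -0.09. Over all genes tested, 47.4% lay below 0 and 12.3% were separated downwards. At 8 genes, a count of 0 lies near the latter share. Further genes with separated groups were NDUFA1, NDUFA3, NDUFB1, NDUFB7, NDUFB9, NDUFB11 and NDUFV3, all lower in PRMT1 KD libraries by -0.25 to -0.10 and with limma adjusted p of 0.103 to 0.382. NDUFB7, the member with the second highest level, went from 136.3, 134.8 and 113.3 FPKM in control to 108.5, 104.5 and 107.7 FPKM in PRMT1 KD libraries. NDUFS5, with the highest level, overlapped between groups at 205.7 to 224.8 FPKM in control and 191.5 to 217.4 FPKM in PRMT1 KD libraries. NDUFAB1, the mitochondrial acyl carrier protein that NDUFA6 holds, was at 67.02 to 71.62 FPKM in control and 65.67 to 73.24 FPKM in PRMT1 KD libraries, with a log2 fold change of 0.00 (95% interval -0.13 to 0.13).

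At the other end of the range, no subunit was separated upwards, while 13.6% of all genes tested were. NDUFB6, a membrane-arm subunit, was at 27.45, 29.04 and 27.95 FPKM in control and 28.36, 32.43 and 33.39 FPKM in PRMT1 KD libraries. Its log2 fold change of 0.15 was the highest of all members, and the groups overlapped through PRMT1 KD replicate 1 (limma adjusted p = 0.282). NDUFS4, an accessory subunit of the NADH-oxidising module, was at 29.06, 31.48 and 31.75 FPKM in control and 28.68, 32.37 and 37.40 FPKM in PRMT1 KD libraries. These values overlapped as well (log2 fold change 0.08, limma adjusted p = 0.671).

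The assembly factors lay on both sides of 0. NDUFAF7, the arginine methyltransferase that acts on a core subunit, was at 10.93, 11.45 and 11.45 FPKM in control and 11.86, 12.39 and 13.58 FPKM in PRMT1 KD libraries. It was the only one of the 45 genes with every PRMT1 KD library above every control library, but it was not called (log2 fold change 0.15, SE 0.0613, limma adjusted p = 0.249). NDUFAF5, the arginine hydroxylase that acts on NDUFS7, was at 3.41, 3.62 and 3.97 FPKM in control and 3.96, 3.57 and 4.01 FPKM in PRMT1 KD libraries. Its groups overlapped (log2 fold change 0.06, limma adjusted p = 0.732), in contrast to NDUFAF8, whose product binds it. The ratio of NDUFAF8 to NDUFAF5 was 10.98, 10.04 and 9.20 in control and 7.11, 7.55 and 7.26 in PRMT1 KD libraries. This ratio was chosen after its values were seen, and the two-sided exact permutation test over libraries gave p = 0.1, the smallest that 3 against 3 allows.

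NDUFAF1, part of the complex that builds the membrane arm around ND2, was at 14.27, 15.94 and 14.03 FPKM in control and 13.03, 12.69 and 11.26 FPKM in PRMT1 KD libraries. NDUFAF2, the chaperone replaced by NDUFA12, was at 36.87, 38.90 and 36.12 FPKM in control and 32.22, 35.79 and 35.44 FPKM in PRMT1 KD libraries. Both were separated downwards without being called (log2 fold changes -0.24 and -0.11, limma adjusted p = 0.142 and 0.337). NDUFAF3, which helps to build the ubiquinone module, was at 45.62, 45.48 and 41.44 FPKM in control and 46.48, 43.58 and 46.20 FPKM in PRMT1 KD libraries, with a log2 fold change of 0.04. Its partner NDUFAF4 was at -0.12 on that scale, and NDUFAF6, needed for the ND1 part of the enzyme, was at -0.01, with overlapping groups in all 3. The 8 NDUFAF genes therefore had a median of -0.06, with 5 below 0, beside -0.09 and 30 of 37 for the subunits. With a filter of 5 FPKM, which leaves out NDUFAF5 and NDUFAF6, the order was the reverse, at -0.12 for NDUFAF genes and -0.09 for the subunits. Taken library by library, against the control mean of each gene, the median subunit gene stood at -0.13, -0.11 and -0.12 on the log2 scale in the PRMT1 KD libraries and between -0.05 and 0.03 in the control libraries. For NDUFAF genes it stood at -0.14, -0.04 and 0.02 in the PRMT1 KD libraries, against -0.04 to 0.03 in control. By this measure the assembly factors thus overlapped between groups and the subunits as a whole did not. The 6 core subunit genes overlapped too, at -0.058, -0.028 and -0.056 in PRMT1 KD libraries against -0.062 to 0.043 in control. So did the 8 NDUFS genes. The 31 accessory subunit genes did not, at -0.166, -0.145 and -0.122 against -0.040 to 0.031. Nor did 36 nuclear subunit genes of complexes III to V, at -0.171, -0.108 and -0.073 against -0.052 to 0.023. The difference between the classes was not tested.

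The promoter of NDUFAF8 is shown with that of NDUFS6, since the former belonged to the gene with the lowest p and the latter to the gene the study followed furthest. RefSeq windows (GRCh38.p14, 250 bases before to 50 after each start) were found for 40 of the 48 genes, and only the bases outside GENCODE exons are printed. That left none for NDUFB2, whose window lay wholly in exons. Capitals mark a CCAAT box (CCAAT, or ATTGG on the other strand) or a GC box (GGGCGG, or CCGCCC).
NDUFAF8 chr17:81239092-81239238, plus strand: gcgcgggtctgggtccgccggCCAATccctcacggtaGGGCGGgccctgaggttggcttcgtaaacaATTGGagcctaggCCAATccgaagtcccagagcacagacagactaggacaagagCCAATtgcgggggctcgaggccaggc
NDUFS6 chr5:1801157-1801333, plus strand: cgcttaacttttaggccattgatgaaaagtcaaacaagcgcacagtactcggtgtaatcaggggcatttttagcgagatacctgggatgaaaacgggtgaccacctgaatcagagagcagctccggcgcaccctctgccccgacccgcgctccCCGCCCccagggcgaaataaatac
The NDUFAF8 stretch of 147 bases held 4 CCAAT boxes and 1 GC box, and the NDUFS6 stretch of 177 bases held 1 GC box and 0 CCAAT boxes. Over the whole windows, both strands searched and overlapping matches of different motifs all counted, a CCAAT box was present in 30% of the 40 genes, against 39.7% of all genes with a window and 44.1% of those tested. The letters AAGATGGC, which YY1 binds, were in 20% of the NDUF genes (8 of 40), against 3.52% of all genes and 7.48% of those tested. Shares for the NRF1 motif were 17.5%, 6.98% and 14.9%, for the ETS motif CCGGAAG 17.5%, 12.2% and 24.9%, and for the GC box 65%, 48.3% and 77.3%, in the same order. Of the 14 genes with a window that were separated downwards, 10 held a GC box, 7 a CCAAT box, 3 the YY1 letters, 3 the NRF1 motif and 3 the ETS motif, against 16, 5, 5, 4 and 4 of the other 26, and no difference between these was tested. A match is a description of letters in a window and does not show a bound factor.

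The low readings of a few members went with the way their exons overlap other genes. In 8 members, some or all of the coding sequence also lies in exons of another gene on the same strand. These were NDUFC2-KCTD14 (100% of coding bases), NDUFB8 (85.2%), NDUFV2 (84.7%), NDUFA7 (78.3%), NDUFC2 (76.9%), NDUFA9 (67.9%), NDUFA13 (55.2%) and NDUFA11 (36.9%). Their mean levels ran from 0.0372 to 8.64 FPKM with a median of 2.42 FPKM, whereas the other 40 members ran from 3.76 to 209 FPKM with a median of 25.8 FPKM. All 3 members left out of the test were among the 8. The partner of NDUFV2, AP005263.1, was listed at 0 in every library, and that of NDUFA11, AC024592.3, had a mean of 0.0046 FPKM. The counting tool named in the submitters' processing notes, featureCounts, by default leaves out a fragment that overlaps several genes, but the setting used is not given in the sources used here, and its part in these levels was not tested. Without these 8 genes, 31 of 40 lay below 0 with a median log2 fold change of -0.09, and 15 were separated downwards. Over all genes tested these shares were 47.4% and 12.3%.

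**Figure D3:**
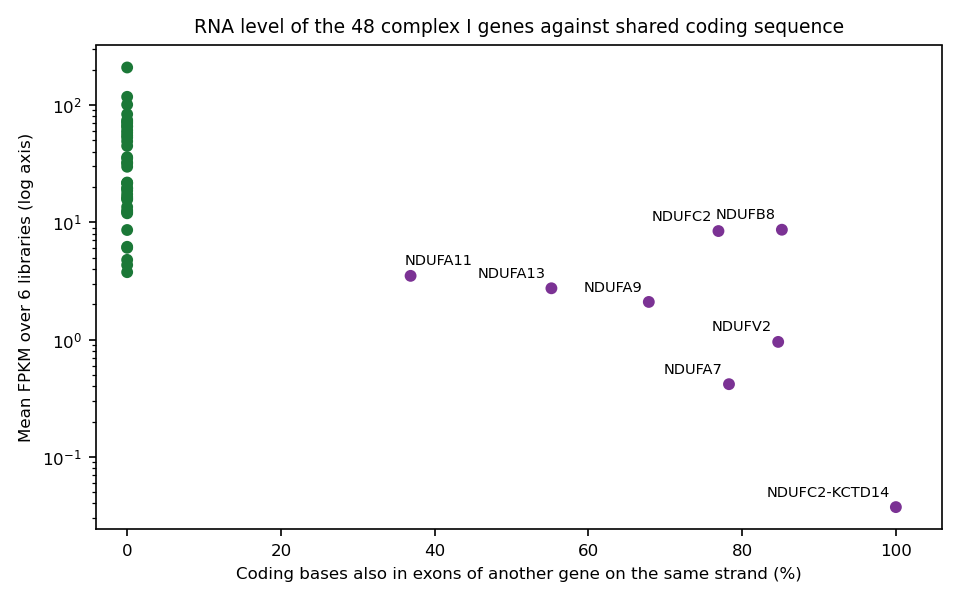
Mean FPKM over the 6 libraries (log axis) against the share of coding bases that also lie in exons of another gene on the same strand, for the 48 NDUF genes. The 8 genes with shared coding bases (purple, named) all lie under 10 FPKM, with NDUFC2-KCTD14 lowest at 0.0372 FPKM, and the other 40 (green) lie at 3.76 FPKM or more.

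Few reads were assigned to pseudogenes of this family. How fragments that match both a member and a pseudogene were handled is not given in the sources used here. The counts therefore do not show how many reads the members lost. The table held 59 NDUF pseudogenes, of which 36 were at 0 in all libraries and 1 was tested. For 18 of the 19 members with a pseudogene named after them, the reads on the pseudogenes came to at most 1.76% of those on the member. The exception was NDUFV2, with 11.8 pseudogene reads per library against 40.7 on the gene itself (29.1%).

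Gene length moved with the fold change over protein-coding genes, and the 48 NDUF genes had a median exonic length of 2454 bases. Among protein-coding genes other than NDUF genes, the median log2 fold change was -0.10 for 125 genes under 1000 bases of exon, -0.06 for 752 genes of 1000 to 2000 bases, -0.01 for 4056 genes of 2000 to 5000 bases and 0.04 for 5129 longer genes. In the same brackets the NDUF genes had medians of -0.19 (n = 4), -0.12 (n = 16), -0.12 (n = 15) and -0.05 (n = 10), below the other genes in each. The share below 0 was 66.4%, 65.7%, 52.1% and 37.4% for the other genes and 100%, 68.8%, 80% and 80% for the NDUF genes. Within the family, log2 length and log2 fold change had a Pearson r of 0.267 and a Spearman rho of 0.287 across 45 genes, which share libraries and are not independent. The part of gene length in these values was not tested.

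**Figure D4:**
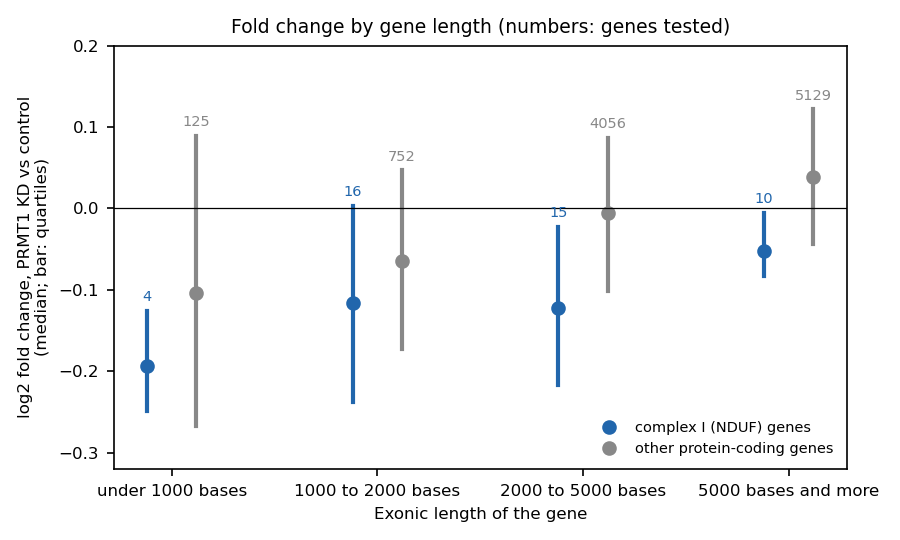
Median log2 fold change (PRMT1 KD over control, log2(FPKM + 1) scale) with quartiles as bars, by exonic gene length, for NDUF genes (blue) and other protein-coding genes (grey); the numbers above the bars count the genes tested. The medians of the other genes climb from -0.10 to 0.04 with length, and the NDUF medians lie below them in all 4 brackets.

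The 7 complex I subunits encoded in mitochondrial DNA, which form the proton-pumping core of the membrane arm, all had log2 fold changes below 0, with a median of -0.16, 4 separated downwards and 0 called by limma on log2(FPKM + 1) (3 at an unadjusted p under 0.05), whereas voom on the reads called 2 lower. Over all genes tested, 12.3% were separated downwards, limma called 0.986% lower and voom 2.95%, which are the shares to set beside these and the following lists. MT-ND6, the only one transcribed from the strand opposite the rest, was at 1772, 1584 and 1488 FPKM in control and 1259, 1287 and 1212 FPKM in PRMT1 KD libraries. Its groups lay apart, with a log2 fold change of -0.36 (SE 0.0702, limma adjusted p = 0.0556), and voom called it (adjusted p = 0.00192) together with MT-ND4 (adjusted p = 0.0433, log2 fold change -0.16 by either fit). The others ranged from -0.18 for MT-ND5 to -0.04 for MT-ND4L, so MT-ND6 had the largest difference among the 7. Since the strand setting of the counting is not given, whether RNA of the other strand was counted towards MT-ND6 is not known. Overlap of MT-ND4L with MT-ND4 makes the split of reads between these uncertain.

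Of 12 assembly factors outside the NDUF family, 10 lay below 0, with a median of -0.05, 4 separated downwards and 0 called by limma or by voom on the reads (4 at an unadjusted limma p under 0.05). The 4 were DMAC1, TMEM186, TMEM70 and TIMMDC1, which act in the building of the membrane arm, with log2 fold changes of -0.24, -0.19, -0.15 and -0.13 and limma adjusted p of 0.144 to 0.196. ACAD9 and ECSIT, which work with NDUFAF1, were at 0.02 and -0.14 with overlapping groups. Across the other respiratory complexes, 33 of 36 nuclear subunit genes of complexes III, IV and V lay below 0, with a median of -0.12, 19 separated downwards and 2 called lower by limma, or 7 by voom on the reads. Those called by limma were COX6A1 of complex IV (log2 fold change -0.37, limma adjusted p = 0.0425) and ATP5MC1 of complex V (-0.29, limma adjusted p = 0.0287). All 4 genes of complex II lay below 0 with a median of -0.06, and 2 were separated downwards (SDHC and SDHD). None of the 4 was called by limma or voom, with 1 at an unadjusted limma p under 0.05. Of 24 assembly factors of complexes III to V tested, 18 lay below 0 with a median of -0.05. TMEM70, named above, is counted in both lists of assembly factors. Of the 24, 5 were separated downwards and 2 upwards, beside 13.6% upwards over all genes tested. Limma called 1 lower, COX14 (log2 fold change -0.43, limma adjusted p = 0.0327). The 37 NDUF subunit genes, with a median of -0.09 and 81.1% below 0, stood beside 91.7% below 0 for complexes III to V, and no test of a difference between the complexes was made.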

How the data were processed

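The authors deposited FPKM values for 58735 genes in 6 RNA-seq libraries, with gene length, coordinates and type. Per the submitters' processing notes, featureCounts 1.5.0-p3 and hg38 were used. Aligner, annotation and strand setting are not given in the sources used here. Lengths and coordinates of all genes equalled those of GENCODE release 29. Of the deposited FPKM values above 0, 100% were whole multiples (within 0.01) of 1 read per library, so reads could be worked back, between 14439217 and 16465026 per library.

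Genes with a mean of at least 1 FPKM (13585) entered the fit on the scale log2(FPKM + 1). The tool was limma (version 3.58.1, under R version 4.3.3), with a trended prior variance, two-sided p and Benjamini-Hochberg adjustment over all genes tested at a threshold of 0.05. Fold changes are on this scale, which understates changes of low genes. SE and intervals are those of limma. The fit was also run on simulated reads with the same dispersion for every gene and independent libraries, and the outcome is not reported here. Exon overlap, primer matches and pseudogenes were taken from GENCODE 29, and promoter letters from RefSeq windows.

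Members and lists were chosen with earlier results of these data known. Named with their value in each library are the genes called, those with qRT-PCR primers in the study, the nuclear core subunits except 1 that is not reported here on its own, NDUFAF7, NDUFAF5 and the 5 genes at either end of limma's t, and every NDUFAF gene is named. NDUFB7, NDUFAF1, NDUFAF2, NDUFAB1, NDUFS5, NDUFA4 and the genes outside the family were picked after their values were seen. The 15 alternatives changed the pseudocount (0.1), filter (none, 5 FPKM), scaling (median, quantile, TPM), variance trend and replicate block, used voom on the reads, or left out each library.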

Additional observations from a re-analysis of the deposited data

How the results depend on the processing

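PRMT1 passed the test in all 15 alternatives. Against 2 NDUF genes called, limma called 0 with no filter, 0 without the variance trend, 4 with a filter of 5 FPKM and 0 to 2 when 1 library was left out. With control replicate 3 left out, the 2 were NDUFAF8 and NDUFB7. Voom on the reads called 3, with NDUFA6 added (adjusted p = 0.0423). Both NDUFAF8 and NDUFB2 lay below 0 in all 15. Leaving out 1 library lowers the residual degrees of freedom, and the calls over all genes went from 279 to between 13 and 94. Over all genes, limma called 35 with no filter, 43 without trend and 473 with a filter of 5 FPKM, and voom 927. The cause of these differences was not tested. The subunit median ran from -0.13 (without PRMT1 KD replicate 3) to -0.0888 and the assembly factor median from -0.0964 (without control replicate 1) to -0.0205 (without PRMT1 KD replicate 1) when 1 library was left out (assembly factors were at -0.12 with a filter of 5 FPKM), and the genes below 0 from 32 to 39. Genes with values near 0 changed sign without being called. NDUFAF6, NDUFS3 and NDUFS7 were at 0.0109, 0.00134 and 0.0132 on the TPM scale. With 1 library left out, NDUFS7 ran from -0.0852 to 0.0633, NDUFAF6 from -0.0740 to 0.0472, NDUFS3 from -0.0576 to 0.0131, NDUFAF3 from -0.00464 to 0.0687 and NDUFS4 from -0.0123 to 0.173.

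Same-numbered libraries deviated together by r = 0.02, 0.0631 and 0.101, so the replicate numbers were not taken to pair them, although every library correlated best with its own number in the other group, a hint from the data, and the study calls its replicates dependent without saying what a number shares. With the replicate number as a block, 2 NDUF genes were called, NDUFAF8 (limma adjusted p = 0.0437) and NDUFS6 (0.0495), and NDUFB2 was not (0.0539), while medians and counts below 0 did not move (-0.09, -0.06 and 35) and 204 genes were called in all. At 3 libraries a group and 14439217 to 16465026 reads, the members under 1 FPKM were left out of the fit, and with no filter they were tested and not called.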
